A study of Mus musculus with 14 samples.

Results

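The genes described here are 9 identity genes of inhibitory interneurons. They are the GABA synthesis genes Gad1 and Gad2, the vesicular GABA transporter gene Slc32a1, the transcription factor genes Dlx1, Dlx2, Lhx6 and Sox6, the calcium buffer gene Pvalb and the secreted glycoprotein gene Reln. A probe set was taken for a gene when it carried that symbol alone. Each of the 9 genes had 1 such probe set, out of 23332 probe sets and 14860 genes with a probe set of their own. Interneurons do not express Neurod6, and so are not a target of the Cre recombinase used in the study.

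RNA of cerebral cortex and hippocampus from C57BL/6 mice at postnatal day 7 was measured on 14 Affymetrix exon arrays, all labelled male. Every mouse carried 2 floxed Ctcf alleles (CTCF fl/fl). The conditional knockout (cKO) had Cre in 1 allele of the Nex locus, which is Neurod6 (Nex-Cre +/Cre), and controls had none (Nex-Cre +/+). No group carried Cre without floxed Ctcf, so effects of Ctcf loss, of Cre and of the altered Neurod6 allele cannot be told apart. By their labels 4 control and 4 cKO arrays are from cortex, and 3 of each from hippocampus. The sample titles call each array a biological replicate, but no animal is named for an array. The p-values here rest on the spread between arrays, part of which may be technical.

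Of the 6 arrays labelled hippocampus, 3 were set aside because each nearly copied a cortex array of the same genotype. Control 2 matched cortex control 3, cKO 1 matched cortex cKO 3, and cKO 3 matched cortex cKO 2. The Spearman correlation over all probe sets was at least 0.997 in these 3 pairs and at most 0.990 in any other pair. Prox1, a marker of dentate granule cells, read 6.65 to 6.91 on the 3 set aside, 8.91 to 9.28 on the 3 kept, and 6.61 to 7.20 in cortex. Results rest on 11 arrays, with 2 control arrays and 1 cKO array of hippocampus, and values for all 14 arrays as labelled are given where they end a call or move a value the text turns on. The Y-linked genes Eif2s3y and Kdm5d had a mean of at most 4.10 on cortex cKO 1 and 4, hippocampus control 1 and hippocampus cKO 2, and of at least 7.91 on the other 10 arrays. The number of arrays limits the precision of every value.

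Interneurons of the cortex and hippocampus release the inhibitory transmitter GABA. They are born in the ganglionic eminences of the ventral forebrain, where Dlx1 and Dlx2 act early, and migrate tangentially into the cortex and hippocampus. Lhx6 and then Sox6 direct the lineage from the medial eminence, which gives rise to cells that later express parvalbumin or somatostatin. Excitatory neurons arise locally in the dorsal forebrain, and those are the cells in which Nex-Cre is active. In bulk tissue, fewer cells of a type and less RNA per cell cannot be told apart.

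Promoter sequences are shown for the members whose values carry the results below. Those of Reln and Pvalb come first, because their cortex arrays separated by genotype. Each is the stretch of 250 bases before a transcription start in RefSeq's GRCm38.p6 assembly, on the strand of the gene. The arrays were annotated on mm9, and no probe position is used here. The Reln window is chr5:22344706-22344955 on the minus strand, with a GC content of 80.0%. The Pvalb window shown is chr15:78206401-78206650 on the minus strand, the first of 2 starts. Capitals mark AGGGGGC, a short form of the CTCF core, on either strand.
Reln: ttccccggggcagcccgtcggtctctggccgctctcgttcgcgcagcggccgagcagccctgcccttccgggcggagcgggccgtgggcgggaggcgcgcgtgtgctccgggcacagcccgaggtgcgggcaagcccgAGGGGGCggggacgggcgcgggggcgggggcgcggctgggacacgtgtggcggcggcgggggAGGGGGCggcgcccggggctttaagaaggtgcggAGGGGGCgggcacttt
Pvalb: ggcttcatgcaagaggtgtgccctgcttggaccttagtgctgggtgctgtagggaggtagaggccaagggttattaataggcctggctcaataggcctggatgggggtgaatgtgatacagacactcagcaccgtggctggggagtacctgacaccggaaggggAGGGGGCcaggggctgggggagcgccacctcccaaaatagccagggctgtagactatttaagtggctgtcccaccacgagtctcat

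The letters AGGGGGC occurred in 4 of the 17 windows of the members, 3 times in that of Reln, and in windows of Sox6, Pvalb and Reln. They occurred in 9.43% of all 32851 promoter windows. A longer CTCF core with free positions was in none of the 17 windows and in 2.07% of all. The homeodomain core TAATTA, the kind of letters bound by DLX and LHX proteins, was in none of the 17 and in 4.84% of all.

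Gad1, Gad2 and Slc32a1 varied together from array to array, and their windows are shown with the E-box letters CANNTG, which read the same on both strands, in capitals. They are chr2:70561879-70562128, chr2:22622077-22622326 and chr2:158610508-158610757, all on the plus strand. CANNTG was in 13 of the 17 windows, from 8 of the 9 genes, and in 66.2% of all windows.
Gad1: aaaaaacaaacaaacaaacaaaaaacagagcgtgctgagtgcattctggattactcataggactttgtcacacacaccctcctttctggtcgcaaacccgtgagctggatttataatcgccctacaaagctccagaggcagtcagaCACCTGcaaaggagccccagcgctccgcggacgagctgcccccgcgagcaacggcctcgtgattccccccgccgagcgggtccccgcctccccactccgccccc
Gad2: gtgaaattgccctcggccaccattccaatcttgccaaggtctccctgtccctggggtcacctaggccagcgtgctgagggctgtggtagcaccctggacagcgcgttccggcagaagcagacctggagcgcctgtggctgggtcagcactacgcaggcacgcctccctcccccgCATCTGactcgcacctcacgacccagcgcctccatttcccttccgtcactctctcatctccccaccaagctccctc
Slc32a1: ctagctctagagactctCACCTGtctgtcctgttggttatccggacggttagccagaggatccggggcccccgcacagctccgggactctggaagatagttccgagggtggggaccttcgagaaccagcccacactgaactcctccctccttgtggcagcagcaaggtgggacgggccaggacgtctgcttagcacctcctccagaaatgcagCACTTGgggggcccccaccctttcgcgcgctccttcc

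Values are log2 expression values. A change was called at an adjusted p under 0.05 with a fold above 1.2, by limma with Benjamini-Hochberg adjustment over all 23332 probe sets. The targeted gene was called in cortex. Ctcf read 9.29, 9.23, 9.22 and 9.18 on control arrays 1 to 4, and 7.79, 7.94, 7.74 and 7.78 on cKO arrays 1 to 4. The change was -1.42 (SE 0.08, n = 4 per group, limma adjusted p = 8.42e-05). The position of its probes relative to the floxed part of Ctcf was not used here. Neurod6 fell by 1.87 (SE 0.21, limma adjusted p = 0.00201).

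In cortex, none of the 9 interneuron genes was called by limma, against 1.95% of all probe sets (455 called). Their median log2 change was 0.03, and that of all probe sets was -0.02. An unadjusted p under 0.05 was reached by 2 members, Pvalb and Reln, and by 2667 of the 23332 probe sets. A fit without moderation also called 0 members. With all 14 arrays as labelled, 0 members were called against 1.52% of probe sets. The 95% intervals bound what 4 arrays a group could miss. For Dlx2 the interval ran from 12.3% lower to 6.25% higher in cKO, and for Gad2 from 17.2% lower to 50.3% higher.

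**Figure D1:**
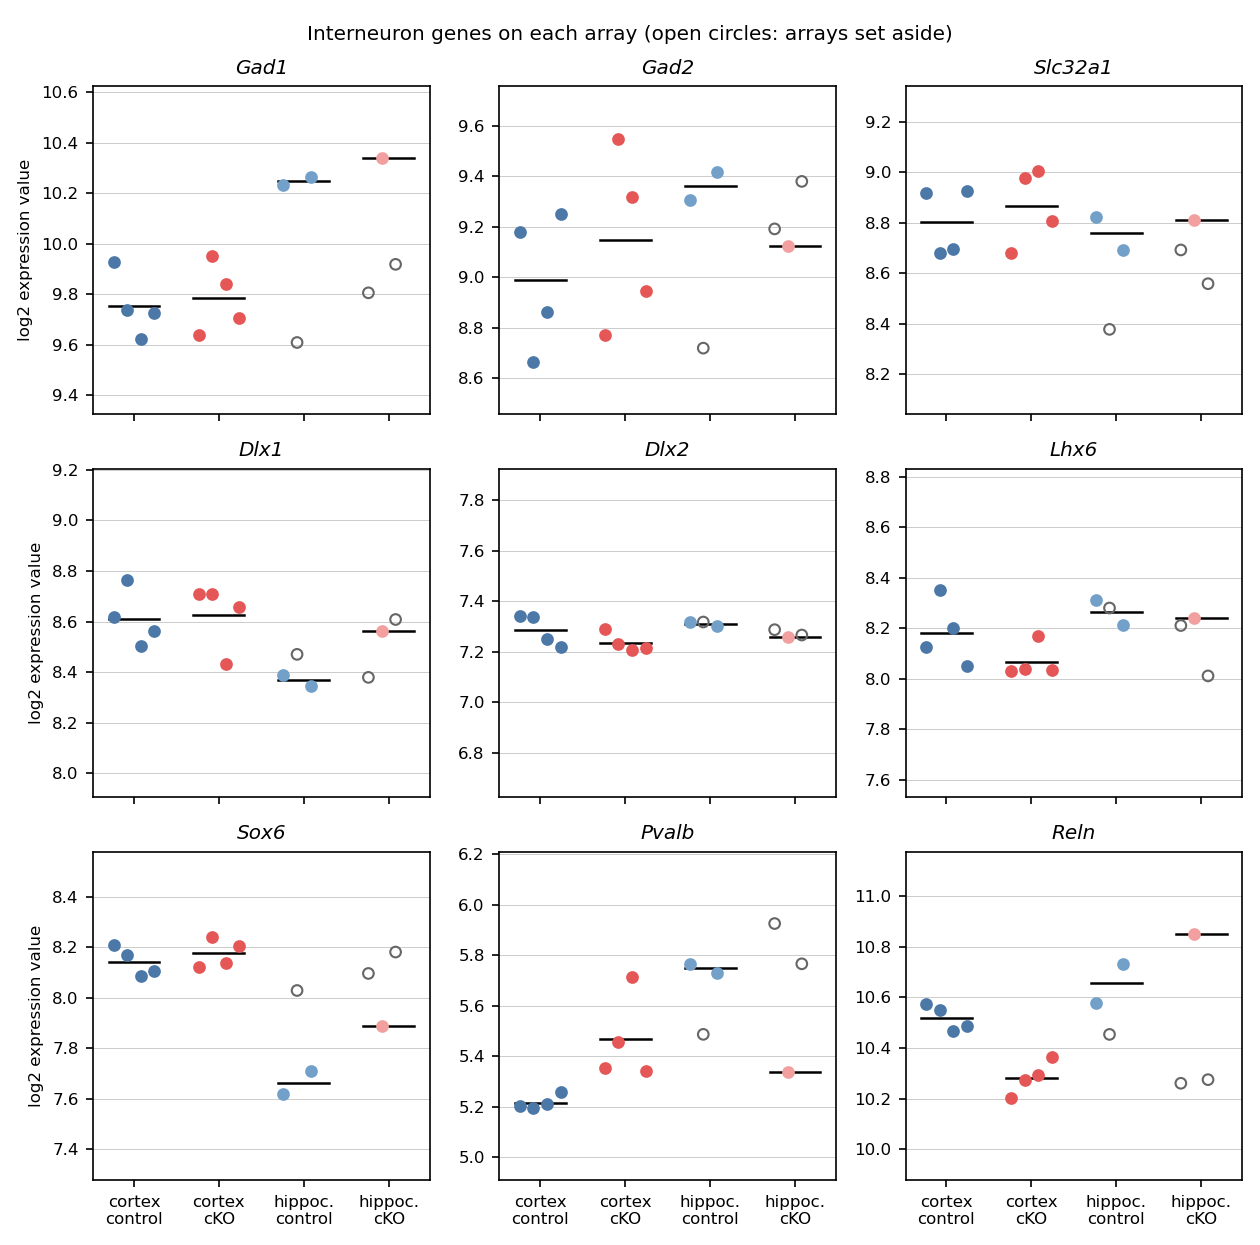
Log2 expression value (vertical axes, 1.3 log2 units in each panel) of the 9 genes on each of the 14 arrays by region and genotype; filled points are kept arrays, open circles the 3 set aside, bars the means of kept arrays. Cortex control and cKO arrays overlap for 7 genes, and separate for Pvalb and Reln.

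Gad1 encodes GAD67, the enzyme that makes most of the GABA of the brain. It read 9.93, 9.74, 9.62 and 9.73 on cortex control arrays 1 to 4, and 9.64, 9.95, 9.84 and 9.71 on cKO arrays 1 to 4. The groups overlapped throughout, with a change of 0.03 (SE 0.09, n = 4 per group, limma adjusted p = 0.959). The 95% interval ran from -0.18 to 0.24.

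Gad2 encodes GAD65, the isoform found at nerve terminals. It read 9.18, 8.67, 8.86 and 9.25 in control, and 8.77, 9.55, 9.32 and 8.94 in cKO. Both groups spread widely and overlapped, with a change of 0.16 (SE 0.19, limma adjusted p = 0.854). Its SD was 0.27 in control and 0.35 in cKO.

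Slc32a1 encodes VGAT, which loads GABA into synaptic vesicles. It read 8.92, 8.68, 8.70 and 8.93 in control, and 8.68, 8.98, 9.004 and 8.81 in cKO. In both groups a pair of arrays was high and another low or intermediate. The change was 0.06 (SE 0.10, limma adjusted p = 0.905).

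The spread of these genes followed the arrays and not the genotype. Control arrays 1 and 4 and cKO arrays 2 and 3 were the 4 highest for Gad2 and for Slc32a1. Over the 8 cortex arrays Gad2 and Slc32a1 had a Pearson r of 0.95 and a Spearman rho of 0.95, and an r of 0.94 after group means were removed. Without the 2 arrays farthest from the median of Gad2 the r was 0.98. For Gad1 the r was 0.77 with Gad2 and 0.79 with Slc32a1. These were the 3 highest of 36 pairs of members, given as a description with no test, and the arrays of a pair share RNA and normalization.

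Some lists of neuronal genes and the lists of glial genes moved with the same arrays, and other neuronal lists did not. The mean of 10 fast-spiking and perineuronal net genes had an r of 0.90 with Gad2 and 0.94 with Slc32a1 over the 8 cortex arrays, and that of 21 interneuron subclass markers 0.69 and 0.68. The mean of 9 oligodendrocyte lineage genes had an r of 0.88 and 0.93, that of 7 astrocyte genes 0.83 and 0.87, and that of 8 microglia genes 0.87 and 0.84. The mean of 9 striatal neuron genes had an r of 0.14 with Gad2 and 0.01 with Slc32a1. That of 16 interneuron transcription factors had an r of 0.02 and 0.13, and that of 8 excitatory neuron markers -0.01 and 0.02. The oligodendrocyte mean ranged from 7.83 to 8.29 over control and from 7.93 to 8.22 over cKO arrays. The microglia mean ranged from 6.45 to 6.92 in control and from 6.85 to 7.38 in cKO. Fcgr3, a receptor of myeloid cells, was the 1 gene of 8 called (higher in cKO), against 1.95% of all probe sets. All 8 microglia changes were positive. The call of Fcgr3 ended on the cortex arrays that carry Y-linked signal (adjusted p = 0.0656). The part of other cell types in the values of the GABA genes was not tested.

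**Figure D2:**
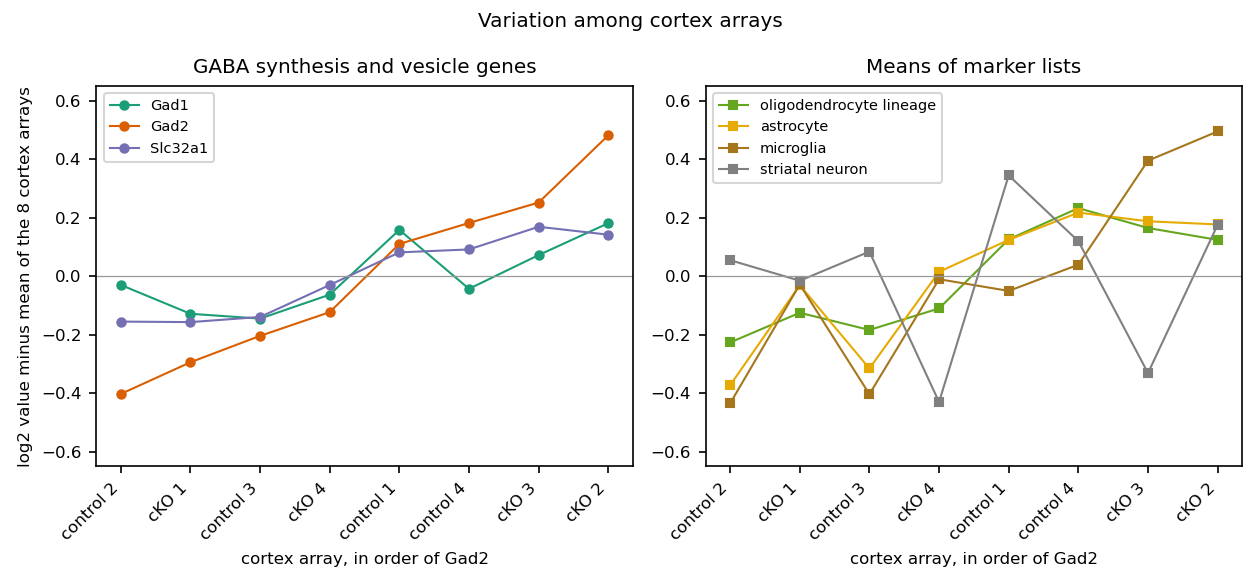
Log2 value minus the mean of the 8 cortex arrays (vertical axis), with the arrays in order of Gad2 (horizontal axis); left, Gad1, Gad2 and Slc32a1; right, means of marker lists. Control 1, control 4, cKO 3 and cKO 2 are the 4 highest arrays for Gad2 and Slc32a1, and also lie above the mean for the oligodendrocyte and astrocyte lists.

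The transcription factors of the lineage kept closely spaced levels in cortex. Dlx1 read 8.62, 8.76, 8.50 and 8.56 in control, and 8.71, 8.71, 8.43 and 8.66 in cKO (change 0.01, SE 0.09, limma adjusted p = 0.981). Dlx2 read 7.34, 7.34, 7.25 and 7.22 in control, and 7.29, 7.23, 7.21 and 7.22 in cKO (change -0.05, SE 0.06, limma adjusted p = 0.854). For both genes the groups overlapped.

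Lhx6 maintains the identity of interneurons of the medial eminence. It read 8.13, 8.35, 8.20 and 8.05 in control, and 8.03, 8.04, 8.17 and 8.03 in cKO. Arrays 1, 2 and 4 of cKO lay together below every control array, and cKO 3 lay inside the control range. The change was -0.11 (SE 0.08, limma adjusted p = 0.705).

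Sox6 acts downstream of Lhx6 in migrating interneurons. It read 8.21, 8.17, 8.08 and 8.11 in control, and 8.12, 8.24, 8.14 and 8.20 in cKO. The groups overlapped, with a change of 0.03 (SE 0.06, limma adjusted p = 0.921).

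Pvalb and Reln were the 2 members of 9 whose cortex arrays did not overlap between genotypes, a pattern shown by 8.4% of all probe sets. Pvalb encodes parvalbumin, the calcium buffer of fast-spiking interneurons, whose expression starts late in the postnatal cortex. It read 5.20, 5.20, 5.21 and 5.26 in control, and 5.35, 5.46, 5.71 and 5.34 in cKO. Every cKO array was higher, with a change of 0.25 (SE 0.09, n = 4 per group, 95% interval 0.05 to 0.45), but it was not called (limma adjusted p = 0.299). Without cortex cKO 3, the highest array, the change was 0.17 (adjusted p = 0.432). Within the pairs of near-copy arrays, each of the same genotype, Pvalb differed by 0.21, 0.28 and 0.31. Its cortex values also lay below the medians of the cortex arrays (6.57 to 6.77).

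Reln encodes reelin, which at this age is made by interneurons of several layers and by remaining Cajal-Retzius cells, and which guides the position of excitatory neurons. It read 10.58, 10.55, 10.47 and 10.49 in control, and 10.20, 10.27, 10.29 and 10.36 in cKO. Every cKO array was lower, with a change of -0.24 (SE 0.07, 95% interval -0.39 to -0.08), equal to -15.1%. It was not called (limma adjusted p = 0.170), and over the 24 alternatives its adjusted p ranged from 0.0592 to 0.565.

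The wider gene groups of interneurons differed in their number of calls in cortex. Of all probe sets 1.95% were called, and 2667 of 23332 had an unadjusted p under 0.05. The lists, like the members, were chosen with earlier results of these arrays known. Of 8 measured genes of GABA synthesis, transport and breakdown, 0 were called by limma, and 1, the glutamine transporter gene Slc38a1 (-0.17, SE 0.06, adjusted p = 0.275), had an unadjusted p under 0.05. Of 16 interneuron transcription factors 0 were called and 2 had an unadjusted p under 0.05, namely Satb1, which acts in maturing interneurons and in excitatory neurons (-0.29, SE 0.08, adjusted p = 0.142), and Npas1 (-0.26, SE 0.10, adjusted p = 0.379). Of 10 fast-spiking and perineuronal net genes 0 were called and 3 had an unadjusted p under 0.05. Among these the potassium channel subunit genes Kcns3 and Kcna1 stood at -0.29 (SE 0.09, adjusted p = 0.187) and -0.47 (SE 0.15, adjusted p = 0.246), where Pvalb had a positive change.

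Of 21 interneuron subclass markers 1 fell and none rose, against 1.95% of all probe sets called. Of the 21, 9 had an unadjusted p under 0.05, and the median change was -0.14. Kit, a receptor tyrosine kinase of layer 1 and other interneurons, ranged from 9.67 to 9.82 in control and from 9.16 to 9.37 in cKO. It fell by 0.47 (SE 0.08, limma adjusted p = 0.0153). Its call ended with the 14 arrays as labelled, where the change was the same and the adjusted p was 0.195, and without cortex control 2, cortex cKO 2 or cortex cKO 3 (adjusted p = 0.0522, 0.0608 and 0.0505). It also ended on the cortex arrays that carry Y-linked signal (adjusted p = 0.0977), which leave out cKO 1 and 4 and no control array. At a minimum fold of 1.5 the calls of Kit, Rapgef1, Itga3 and Sema3a ended. Somatostatin (Sst), the peptide of the other class from the medial eminence, stood at -0.43 (SE 0.10, adjusted p = 0.0744). Sst ranged from 9.98 to 10.3 in control and from 9.53 to 9.82 in cKO, with no overlap. Id2 stood at -0.33 (SE 0.08, adjusted p = 0.0925) and Chodl, a marker of long-range Sst neurons, at 0.71 (adjusted p = 0.163). Neuropeptide Y (Npy) stood at -0.25 (SE 0.09, adjusted p = 0.301) and Vip, the peptide of a class from the caudal eminence, at 0.41 (SE 0.16, adjusted p = 0.378).

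In the reelin pathway 2 of 13 genes fell and none rose, against 1.95% of all probe sets called, with a median of -0.07. Rapgef1, an exchange factor that acts downstream of Dab1 and Crk, fell by 0.47 (SE 0.08, limma adjusted p = 0.0227). Itga3, the integrin alpha 3 subunit of migrating neurons, fell by 0.48 (SE 0.08, adjusted p = 0.0219). Leaving out cortex control 1 or 4 kept the call of Rapgef1, which ended without any other single cortex array (adjusted p up to 0.0832, without cKO 2). That of Itga3 held without control 3 or cKO 4 and ended without any other (up to 0.0776, without cKO 2). On the cortex arrays that carry Y-linked signal the adjusted p was 0.186 for Rapgef1 and 0.112 for Itga3, and with that signal as a covariate it was 0.0907 and 0.0788. Centring each array on its median put Rapgef1 at 0.0582. Excitatory neurons also express both genes. Of 7 Cajal-Retzius markers 0 were called by limma, and Reln alone had an unadjusted p under 0.05. Trp73, a marker of these cells, stood at -0.08 (SE 0.11, adjusted p = 0.880).

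Of 12 ligands and receptors of interneuron migration 2 rose and 1 fell, against 1.95% of all probe sets called. An unadjusted p under 0.05 was reached by 7 of the 12. Robo1, a Slit receptor, rose by 0.60 (SE 0.06, limma adjusted p = 0.00139), and Sema3a, a repellent semaphorin, rose by 0.42 (SE 0.08, adjusted p = 0.0251). Nrp1, a semaphorin receptor of interneurons and of excitatory axons, fell by 0.93 (SE 0.10, adjusted p = 0.00199), from 9.26 to 8.33. On the cortex arrays that carry Y-linked signal the calls of Robo1 and Sema3a ended (adjusted p = 0.0643 and 0.202). With the 14 arrays as labelled Nrp1 and Sema3a kept the same change and lost their call (adjusted p = 0.592 and 0.847). The call of Sema3a held without cortex control 1 and ended without any other single cortex array (adjusted p up to 0.0903, without control 3). The chemokine gene Cxcl12, which attracts migrating interneurons, stood at -0.29 (SE 0.09, adjusted p = 0.189). The neurotrophin gene Bdnf, made by excitatory neurons, stood at -0.30 (SE 0.07, adjusted p = 0.0709). Which cells of the bulk tissue carried the changes of these 12 genes was not tested.

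Markers of other neurons also moved in cortex, where 1.95% of all probe sets were called. Of 8 excitatory neuron markers 2 fell, Neurod6 and Bcl11b (-0.76, SE 0.07, adjusted p = 0.00102), and the mean of the 8 ranged from 9.35 to 9.58 in control and from 9.13 to 9.22 in cKO. Of the 8 changes 4 were positive and 4 negative, with a median of -0.03. Of 9 striatal neuron markers 1 fell, the dopamine receptor gene Drd1 (-1.22, SE 0.20, adjusted p = 0.0173, and 0.284 with the 14 arrays as labelled). Of the 9 striatal changes 8 were negative, with a median of -0.18 against -0.02 for all probe sets. The call of Drd1 held without cortex control 4 or cKO 1 and ended without any other single cortex array (adjusted p up to 0.0614, without control 3). On the cortex arrays that carry Y-linked signal the calls of Bcl11b and Drd1 ended (adjusted p = 0.0564 and 0.0744). Some striatal neurons also express Gad1, Gad2 and Slc32a1, and 0 of the other 8 striatal markers were called by limma. Their part in the values of the members was not tested.

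In hippocampus the comparison rests on 2 control arrays and 1 cKO array, which was assumed to vary like the other groups. None of the 9 members was called by limma, against 0.00429% of all probe sets (1 called), and Pvalb alone had an unadjusted p under 0.05. With all 14 arrays as labelled 0 members were called against 0.334% of probe sets. The single cKO array gave intervals wide enough to hold the cortex change of 7 of the 9 genes. Ctcf was 8.31 on it, against 8.95 and 9.16 in control (change -0.75, SE 0.13, adjusted p = 0.172). As labelled, with the cKO arrays that nearly copy cortex cKO arrays, the change of Ctcf was -1.14 (SE 0.13, adjusted p = 0.00476) and was called.

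Pvalb read 5.77 and 5.73 in hippocampus control 1 and 3 and 5.34 in cKO 2, the opposite order to cortex. The change was -0.41 (SE 0.15, limma adjusted p = 0.698). Its difference from the cortex change was -0.66 (SE 0.18, limma adjusted p = 0.698). As labelled the hippocampus change was 0.02 (SE 0.15, adjusted p = 0.988), with 5.93 and 5.77 on the cKO arrays set aside.

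Reln read 10.58 and 10.73 in hippocampus control 1 and 3, and 10.85 in cKO 2, above both. The change was 0.20 (SE 0.12, limma adjusted p = 0.910), and its difference from the cortex change was 0.43 (SE 0.14, limma adjusted p = 0.812). As labelled the change was -0.13 (SE 0.14, adjusted p = 0.867), with 10.26 and 10.27 on the cKO arrays set aside. The difference between regions was called for none of the 9 members, against 0.00857% of all probe sets.

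The other 7 members had hippocampus changes of at most 0.24 in size. Gad1 read 10.23 and 10.26 in control and 10.34 in cKO (change 0.09, SE 0.16), and Slc32a1 read 8.82 and 8.69 in control and 8.81 in cKO (change 0.05, SE 0.18). Gad2 read 9.30 and 9.42 in control and 9.13 in cKO (change -0.24, SE 0.33). Sox6 read 7.62 and 7.71 in control and 7.89 in cKO (change 0.22, SE 0.11, adjusted p = 0.847). The changes of Dlx1, Dlx2 and Lhx6 were 0.19, -0.05 and -0.02.

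**Figure D3:**
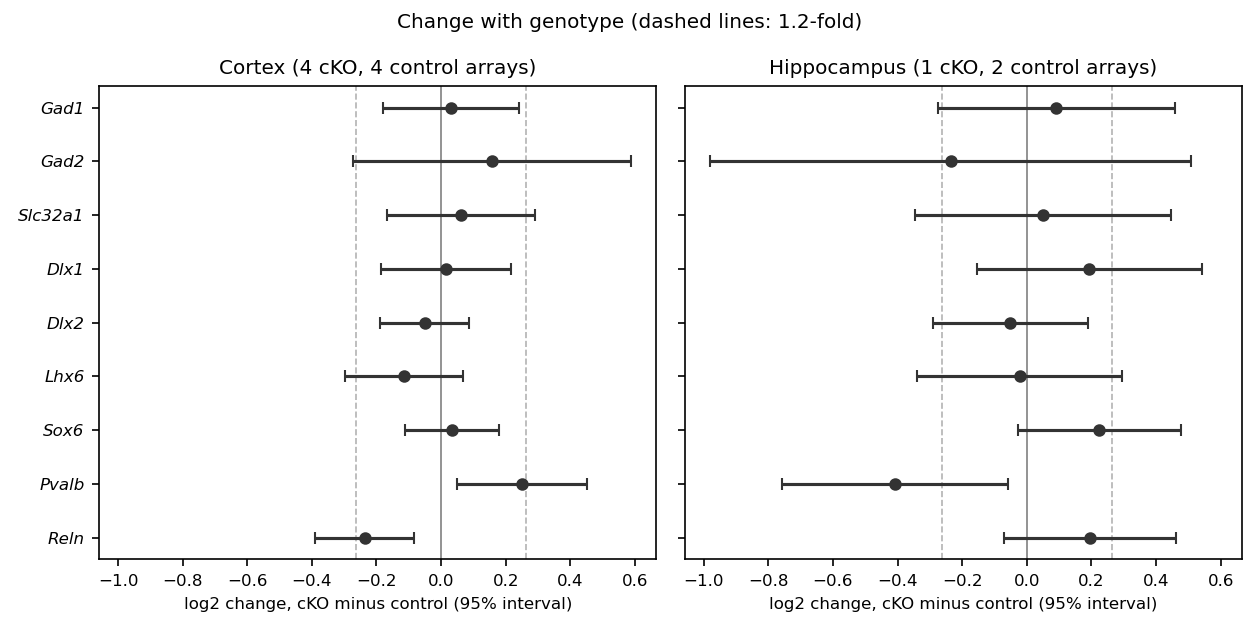
Log2 change, cKO minus control (horizontal axis), with 95% intervals from limma for the 9 genes in cortex (left) and in hippocampus without the 3 arrays set aside (right); dashed lines mark 1.2-fold. In cortex the intervals of Pvalb (0.05 to 0.45) and Reln (-0.39 to -0.08) leave out 0, and in hippocampus that of Pvalb (-0.76 to -0.06) does, with none called.

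Control hippocampus was compared with control cortex to give the regional level of the members without Cre. Of the 9 members 2 were higher in hippocampus, Gad1 and Pvalb, and 1 was lower, Sox6, against 12.5% of all probe sets called. The arrays of the regions did not overlap for 6 members, against 37.6% of all probe sets. All 3 calls ended with the 14 arrays as labelled, where 0 members were called against 2.72% of probe sets.

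Gad1 read 9.62 to 9.93 on the 4 cortex control arrays and 10.23 and 10.26 in hippocampus. It was higher by 0.49 (SE 0.11, limma adjusted p = 0.0253, 1.41-fold). Its adjusted p was 0.102 to 0.140 without 1 of the 2 hippocampus arrays, 0.0513, 0.0576 and 0.0509 without cortex control 2, 3 or 4, and 0.354 with the arrays as labelled.

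Sox6 read 8.08 to 8.21 in cortex control, and 7.62 and 7.71 in hippocampus. It was lower by a log2 difference of -0.48 (SE 0.08, limma adjusted p = 0.00678, 1.39-fold). Its adjusted p was 0.0761 without hippocampus control 1 and 0.0829 with the arrays as labelled. Sox6 is also expressed in the oligodendrocyte lineage. Of 9 markers of that lineage 1, Olig2, was higher in hippocampus (adjusted p = 0.0461) and 0 lower, against 12.5% of all probe sets called. The call of Olig2 ended under 17 of 24 alternatives, with an adjusted p of 0.170 as labelled and 0.310 without hippocampus control 1.

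Pvalb read 5.20 to 5.26 in cortex control, and 5.77 and 5.73 in hippocampus. It was higher by 0.53 (SE 0.11, limma adjusted p = 0.0161, 1.45-fold). Its adjusted p was 0.124 without hippocampus control 1, 0.0645 without hippocampus control 3 and 0.0964 with the arrays as labelled.

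The 3 matching pairs showed which members differed between an array labelled hippocampus and its near copy from cortex. Within these pairs Pvalb was higher on the array labelled hippocampus by 0.21, 0.28 and 0.31. Slc32a1 differed by -0.42, -0.31 and -0.32, and Gad2 by -0.17, -0.13 and -0.14. The other members differed by at most 0.10 in either direction. With the mean pair difference subtracted from the hippocampus arrays, a step chosen after the values were seen, Pvalb stood at 0.27 (adjusted p = 0.218) and lost its call. Gad1 then stood at 0.52 (adjusted p = 0.0361), Sox6 at -0.43 (adjusted p = 0.0177), and Slc32a1 moved from -0.05 to 0.30 (adjusted p = 0.217). The subtracted mean was treated as fixed, so the adjusted p after subtraction leaves out its error and is too small. Whether the kept arrays carry the difference seen in the pairs was not tested.

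**Figure D4:**
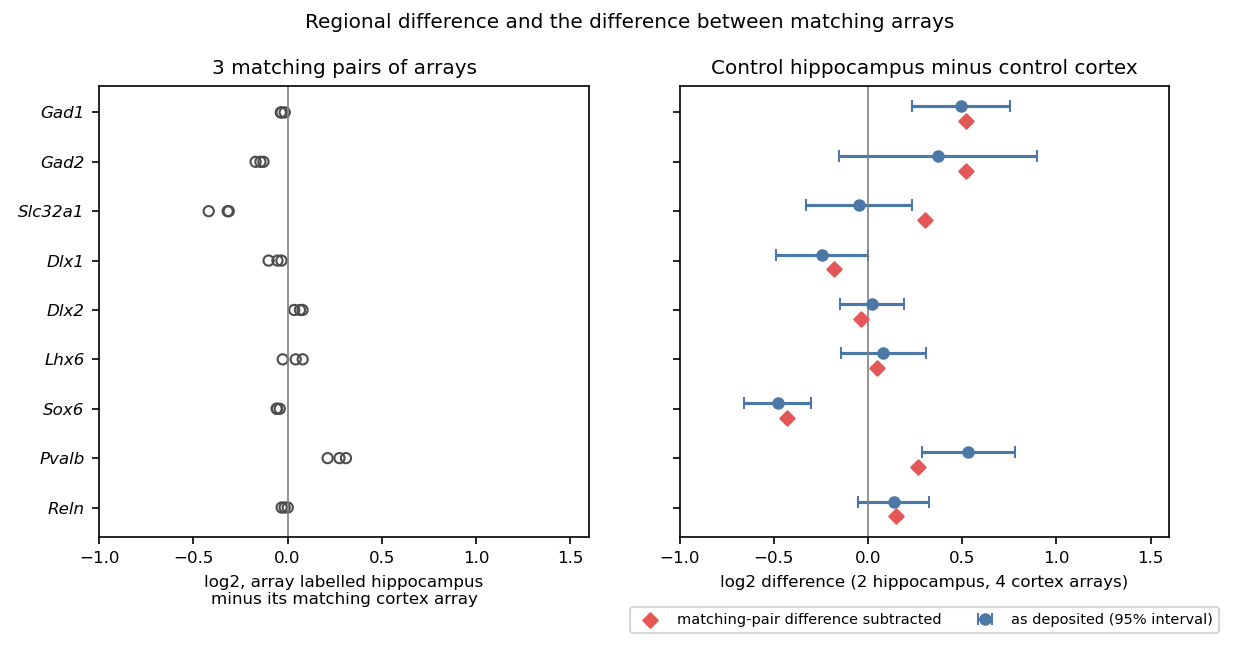
Left, log2 difference within each of the 3 matching pairs, array labelled hippocampus minus its cortex array (open circles, 1 per pair); right, control hippocampus minus control cortex from limma with 95% intervals (circles) and after the mean pair difference is subtracted (diamonds). Pvalb and Slc32a1 differ most within pairs, so by construction their regional difference moves most with the subtraction.

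The 6 members not called by region were given as values. Gad2 stood at 0.37 (SE 0.23, adjusted p = 0.327), Dlx1 at -0.24 (SE 0.11, adjusted p = 0.175) and Reln at 0.14 (SE 0.08, adjusted p = 0.318). Lhx6 stood at 0.08 (SE 0.10), Dlx2 at 0.02 (SE 0.07) and Slc32a1 at -0.05 (SE 0.12). As labelled the regional difference was 0.28 for Gad1, 0.16 for Gad2, -0.17 for Slc32a1 and 0.07 for Reln, none called. For Dlx2 and Slc32a1 the sign depended on the scaling. Dlx2 was at -0.04 with each array centred on its median, and Slc32a1 at 0.06 after a further quantile normalization.

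Other interneuron genes differed between control hippocampus and control cortex as well. Of all probe sets 12.5% were called in this comparison, the share to set beside each list here. Of 21 subclass markers 8 were higher in hippocampus and 1 was lower, with a median of 0.45 against 0.02 for all probe sets. Higher genes included Ndnf, a marker of neurogliaform and Cajal-Retzius cells (0.92, SE 0.14, adjusted p = 0.00504), the nociceptin gene Pnoc (0.66, SE 0.10, adjusted p = 0.00566), Kit (0.56, SE 0.09, adjusted p = 0.00720) and Sst (0.48, SE 0.12, adjusted p = 0.0352). Without single arrays the adjusted p of Sst reached 0.154 (without hippocampus control 3), that of Pnoc 0.0521 (without hippocampus control 1) and that of Kit 0.0512 (without hippocampus control 3). The lower gene was Id2, which cortical excitatory neurons also express (-1.03, SE 0.10, adjusted p = 0.000478). Of 10 fast-spiking and perineuronal net genes 4 were higher, Pvalb and the proteoglycan genes Acan, Bcan and Ncan, and none lower. The call of Ncan ended under 17 of 24 alternatives, which include leaving out any 1 of the 8 cortex or 2 hippocampus control arrays (adjusted p up to 0.177, without hippocampus control 3). That of Bcan ended without hippocampus control 1 or 3 (adjusted p = 0.111 and 0.0715) and as labelled (0.3003). Among 16 transcription factors Prox1, which granule cells of the dentate gyrus also express, was higher, and Satb1 was lower with Sox6. Of 8 GABA genes Gad1 was higher, and Slc38a1 and the GABA transporter gene Slc6a13 were lower.

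Cajal-Retzius and choroid plexus markers were higher on the same hippocampus arrays. Of 7 Cajal-Retzius markers 5 were higher (Lhx1, Lhx5, Ndnf, Cxcr4 and Ebf3) and none lower, while Reln itself was not called. For this list and those below, 12.5% of all probe sets were called. In the reelin pathway 0 of 13 genes were higher and 3 lower, the receptor gene Vldlr (-0.71, SE 0.11, adjusted p = 0.00454), Pafah1b1 and Rapgef1. Of 5 choroid plexus markers 4 were higher, with a list mean of 6.16 and 7.38 on the 2 hippocampus control arrays against 5.08 to 5.25 in cortex control. Of 7 astrocyte markers 2 were higher and none lower, with a median of 0.57 against 0.02 for all probe sets. The astrocyte list mean was 9.77 and 9.83 on the 2 hippocampus control arrays, against 8.97 to 9.56 in cortex control. The part of these cells in the regional values of the members, and of the other genes listed, was not tested. With the arrays as labelled, the calls that held numbered 1 of 9 among subclass markers, 1 of 4 among fast-spiking genes and 1 of 5 among Cajal-Retzius markers. None held in the reelin pathway, GABA, transcription factor, choroid plexus and astrocyte lists.

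The genes whose cortex pattern was most like that of each member were found by Pearson correlation over the 8 cortex arrays among 14014 probe sets. With 8 arrays and so many probe sets a high r is bound to occur, and these are given as a description. Gad1 was most like Pdhx (0.97), Gad2 like the nuclear receptor gene Rora (0.99) and Slc32a1 like Ypel3 (0.996). Dlx1 was most like Zfp740 (0.93), Dlx2 like Maf1 (0.96), Lhx6 like Hoxc4 (0.96) and Sox6 like Gvin1 (0.96). Pvalb was most like Ankrd34b (0.97) and Reln like Ergic1 (0.98). No member had another of the 9 among its 3 most similar genes. Between Pvalb and Reln the r was -0.71 and the rho -0.86, and after group means were removed the r was -0.03.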

How the data were processed

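The authors deposited each array as log2 expression, 1 value to a probe set. Expression Console, RMA, Partek 6.4 and mm9 are named in the submitters' processing notes. Whether all arrays were normalized in 1 run is not stated there. Values were used as deposited, without a filter. Symbols came from the annotation of the platform's probe sets.

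Group membership follows the labels. Members and gene lists were chosen with earlier results of these data known. One mean per group was fitted to 11 arrays with limma 3.58.1 in R 4.3.3 (eBayes, 7 residual degrees of freedom), with Benjamini-Hochberg adjustment over 23332 probe sets. A call needed an adjusted p under 0.05 and a fold above 1.2, the thresholds of the series text. The median of 719 olfactory receptor probe sets, 3.61, was a guide to background, and all 9 members lay above it on average.

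Named genes were the 9 members, Ctcf, Neurod6, for each list called genes and up to 4 with the smallest p in a comparison, and for each member the 3 most correlated genes. Vip, Npy and Cxcl12 were named after their values were seen. The limma procedure was tested on simulated data for the cortex comparison alone, with independent noise and no difference between regions.

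Alternatives used all 14 arrays, the compared groups alone, other scaling, filtering, moderation, array weights and fold minimum, replicate number as a block, Y-linked signal as a covariate (Eif2s3y and Kdm5d), cortex arrays that carry Y-linked signal, each array left out, and the pair subtraction.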

Additional observations from a re-analysis of the deposited data

Results flagged for a closer look

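Lhx6 in cortex cKO 3 read 8.17, and the other 3 cortex cKO arrays read 8.03 to 8.04. The gap exceeded Dixon's critical value for 4 samples. Chance gives such a gap in about 1 of 20 groups, and the groups of 4 cortex arrays were checked for all 9 genes. Without this array the cortex change of Lhx6 was -0.15 (limma adjusted p = 0.655).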

How the results depend on the processing

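No member was called in cortex or hippocampus, or for the difference between regions, under any alternative tried. In cortex 118 probe sets were called with the replicate block, 287 at a fold of 1.5, 282 with Y-linked signal as a covariate, 56 from cortex arrays that carry it, and 273 to 455 without 1 array. In hippocampus 78 were called as labelled, 30 after quantile normalization, 9 with median centring, 8 with trend and robust, 0 with the compared groups alone, the replicate block, no moderation or the covariate, and 0 to 4 without 1 array. For the difference between regional effects 0 were called as labelled or with the replicate block, 4 after quantile normalization or centring, 1 without moderation, and 0 to 2 without 1 array. For control hippocampus against cortex 635 were called as labelled, 1127 with the groups alone, 402 with the replicate block, 1502 at a fold of 1.5, 1772 with the covariate, and 597 to 2913 without 1 array. Members called there numbered 0 as labelled, with the replicate block and at a fold of 1.5, and 0 to 3 without 1 array. With the replicate block the adjusted p was 0.140 for Gad1, 0.124 for Pvalb and 0.0995 for Sox6. In cortex the replicate block ended the calls of Kit (0.161), Rapgef1 (0.177), Itga3 (0.170), Sema3a (0.226), Robo1 (0.0502) and Fcgr3 (0.0828). Gad1 also lost its call with the groups alone (0.0692) and Pvalb after quantile normalization (0.0518). Same-numbered cortex arrays of control and cKO had deviations from their group means that correlated between -0.06 and 0.05. For control cortex with control hippocampus the values were -0.21 (replicate 1) and -0.05 (replicate 3). Such a check on so few arrays cannot exclude that the numbers pair them.

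Some signs turned, among them that of Pvalb in hippocampus, the largest of the 9 changes there (-0.41). As labelled, the hippocampus change was -0.014 for Gad1, 0.085 for Gad2, 0.016 for Pvalb and -0.13 for Reln, and the regional difference in effect -0.044 for Gad1 and 0.0093 for Dlx2. With quantile normalization Slc32a1 was at -0.029 in hippocampus and 0.060 between regions, and the difference in effect of Lhx6 at -0.048. With centring Slc32a1 was at -0.013 in hippocampus, Dlx2 at -0.037 between regions, and the difference in effect -0.037 for Gad1 and -0.0056 for Lhx6. The replicate block put the difference in effect of Gad1 at -0.025. Between regions Slc32a1 was at 0.0086 with array weights, 0.015 with the covariate and 0.30 with the pair subtraction, which put Dlx2 at -0.038. Dlx1 in cortex was at -0.030 with the covariate and -0.041 from arrays with Y-linked signal. Without 1 array, Gad1 in cortex ranged from -0.025 to 0.088 and Dlx1 from -0.022 to 0.079. Between regions Dlx2 then ranged from -0.00096 to 0.040 and Slc32a1 from -0.11 to 0.017, in hippocampus Lhx6 from -0.070 to 0.027 and Slc32a1 from -0.013 to 0.12, and the difference in effect of Dlx2 from -0.018 to 0.023 and of Slc32a1 from -0.074 to 0.054. The cause was not tested. Each member had 1 probe set, so a mean over probe sets gave no separate value. With 1 hippocampus cKO array, leaving it out left no hippocampus comparison.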
